A study of Mus musculus with 6 samples.

Results

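The 10 genes described here encode proteins of the primary (azurophil) granules and regulators and receptors of early granulocytes. They were chosen by name from known biology, but with earlier results of these data known. All 10 were found among the 16579 genes of the deposited table: *Mpo*, *Elane*, *Prtn3*, *Ctsg*, *Ms4a3*, *Lyz2*, *Cebpa*, *Cebpe*, *Gfi1* and *Csf3r*. All 10 also passed the filter on low counts, which left 12256 genes to test. RNA was sequenced of megakaryocytes (MKs), taken by cell sorting from bone marrow of mice aged 3 months, in 6 libraries. Of these, 3 came from Becn1f/f mice, which carry *Becn1* alleles flanked by loxP sites, and 3 were labelled Becn1f/f;Pf4-iCre. The latter carry the same floxed alleles together with Cre recombinase driven by *Pf4* (platelet factor 4) regulatory sequence, which acts in the megakaryocytic lineage; these 3 are called Cre-labelled libraries below. No strain, sex or treatment is given in the labels, and nothing in them says whether a library came from 1 mouse or from several, so p-values measure the spread between these libraries.

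Neutrophils arise from granulocyte-monocyte progenitors through promyelocytes, the stage at which primary granules are filled. Myeloperoxidase (*Mpo*) and the serine proteases neutrophil elastase (*Elane*), proteinase 3 (*Prtn3*) and cathepsin G (*Ctsg*) are transcribed mainly at that stage, and their RNA is lost as the cells mature while the proteins stay in the granules. C/EBPα (*Cebpa*) opens the granulocyte program, GFI1 and C/EBPε (*Cebpe*) carry it forward, and the G-CSF receptor (*Csf3r*) drives neutrophil output. Lysozyme (*Lyz2*) is shared by granulocytes, monocytes and macrophages. None of these genes is a marker of MKs.

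Upstream sequences were available from RefSeq (GRCm38.p6) for 9 of the 10 genes, all but *Cebpe*. The 250 bases before the start sites of the 4 granule protein genes are shown as a description. A link between these sequences and the RNA levels was not tested. They lie on the plus strand at chr11:87793534-87793783 (*Mpo*), chr10:79886062-79886311 (*Elane*) and chr10:79879417-79879666 (*Prtn3*), and on the minus strand at chr14:56102575-56102824 (*Ctsg*). *Prtn3* and *Elane* are neighbouring genes on chromosome 10. Capitals mark GAGGAA, a core recognized by PU.1 and other ETS factors, or TGTGGT, a RUNX-like core, on either strand.
Mpo: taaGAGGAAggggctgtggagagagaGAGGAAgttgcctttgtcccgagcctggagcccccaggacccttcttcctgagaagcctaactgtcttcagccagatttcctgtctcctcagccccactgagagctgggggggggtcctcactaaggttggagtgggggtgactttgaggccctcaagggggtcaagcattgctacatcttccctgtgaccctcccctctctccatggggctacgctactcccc
Elane: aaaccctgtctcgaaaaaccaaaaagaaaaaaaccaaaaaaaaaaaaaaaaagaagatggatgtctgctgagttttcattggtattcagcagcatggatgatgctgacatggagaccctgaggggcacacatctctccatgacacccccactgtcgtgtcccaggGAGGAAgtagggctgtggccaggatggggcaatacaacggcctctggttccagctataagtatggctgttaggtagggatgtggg
Prtn3: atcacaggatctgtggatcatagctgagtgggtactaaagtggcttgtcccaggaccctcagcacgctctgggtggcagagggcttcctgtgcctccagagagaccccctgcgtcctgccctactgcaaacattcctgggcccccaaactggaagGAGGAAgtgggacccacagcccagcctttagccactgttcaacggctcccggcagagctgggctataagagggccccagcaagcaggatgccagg
Ctsg: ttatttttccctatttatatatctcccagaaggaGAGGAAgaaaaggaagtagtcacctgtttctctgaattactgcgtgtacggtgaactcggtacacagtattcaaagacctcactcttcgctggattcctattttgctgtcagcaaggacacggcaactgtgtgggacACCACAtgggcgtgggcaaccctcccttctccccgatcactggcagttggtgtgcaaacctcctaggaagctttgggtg
The letters GAGGAA were found in the full 300-base window (250 bases before to 50 after the start) of 6 of the 9 genes, namely *Mpo*, *Elane*, *Prtn3*, *Ctsg*, *Ms4a3* and *Csf3r*, against 28.3% of all 32851 such windows. They began at base -85 of *Elane* and at base -95 of *Prtn3*, counted from the start site, and at bases -247 and -224 of *Mpo*. A C/EBP-like stretch, TTGCNNAA, was found for 2 of the 9 genes (*Ms4a3* and *Gfi1*; 10.8% of all windows), and TGTGGT for 2 of the 9 (*Ctsg* and *Lyz2*; 16.8% of all windows). No marked stretches overlapped in these windows. A match describes the letters only.

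The table holds estimated read counts, which need not be whole, and FPKM (fragments scaled to transcript length and library size). FPKM is used for levels between genes, and normalized counts (CPM, counts scaled to library size after TMM normalization) for comparisons between libraries. Total counts lay between 16467560 and 17156728. *Becn1* itself was at 79.5 ± 6.50 FPKM in Becn1f/f and 71.4 ± 2.38 in Cre-labelled libraries (SD, n = 3 each). Its log2 fold change of -0.15 (standard error, SE, 0.12) did not pass the test, so the libraries are named by their labels. By other assays, the study reported significantly less *Becn1* RNA in marrow cells positive for the MK marker CD41 (RT-qPCR). It also reported no detectable Becn1 protein in platelets of Becn1f/f;Pf4-iCre mice. Of the markers of the sorted cell, *Itga2b* (CD41) was at 55.7 ± 7.14 and 49.4 ± 4.51 FPKM (SD, n = 3 each), a gene named after its values were seen. *Pf4* was lower in Cre-labelled libraries, at 17.9 ± 5.46 FPKM in Becn1f/f and 8.8 ± 1.39 in Cre-labelled libraries (SD, n = 3 each), without overlap. The 18 MK and platelet markers took 0.244% to 0.472% of counts in Becn1f/f and 0.235% to 0.422% in Cre-labelled libraries, and none was at 0 in all libraries. Most of that was *Thbs1*, without which the other 17 took 0.0298% to 0.0394% and 0.0308% to 0.0377%. The 4 granule protein genes alone took 0.308% to 0.563%. In bulk RNA, fewer cells of a type and less RNA per cell cannot be told apart.

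The levels of the 10 genes spanned a wide range and kept much the same order in every library. *Lyz2* was among the 5 genes with the highest FPKM in each library, and *Mpo* ranked between 13 and 90. *Elane* ranked between 52 and 131, *Prtn3* between 102 and 184 and *Ctsg* between 200 and 303. The order *Lyz2*, *Mpo*, *Elane*, *Prtn3*, *Ctsg* held in 6 of 6 libraries. Below them, *Csf3r* exceeded *Ms4a3* in 1 library. *Csf3r* lay above *Cebpe* in every library, while *Cebpa* changed places with each of these between libraries. The means of *Csf3r*, *Cebpa* and *Cebpe* were 100 ± 26.3, 62.7 ± 14.2 and 63.8 ± 2.68 FPKM in Becn1f/f libraries (SD, n = 3). *Gfi1* was the lowest of the 10 in every library.

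**Figure D1:**
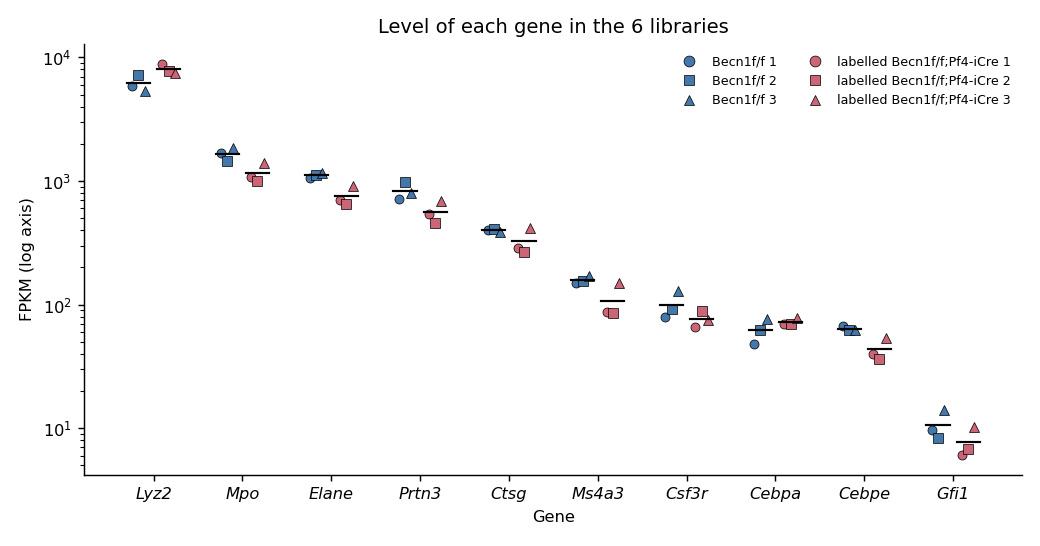
FPKM (log axis) of the 10 genes in each library, ordered by mean level, with Becn1f/f in blue, Cre-labelled libraries in red, a marker shape for each replicate number and a bar at the group mean. *Lyz2* lies at 5320 FPKM or above and *Gfi1* at 13.9 or below, and the 5 highest genes keep their order in all libraries.

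The question put to these genes was whether they differed between the genotypes. The study's methods call a gene differentially expressed (a DEG) at an unadjusted P under 0.05 together with a fold change of 1.5 or more. By that rule, 0 of the 10 genes were DEGs in edgeR's quasi-likelihood test. Among all 12256 genes, 2.3% were DEGs, 0.938% with lower and 1.36% with higher values in Cre-labelled libraries. DESeq2 also gave 0 DEGs among the 10, and limma-voom gave 1, *Ms4a3*. At an unadjusted P under 0.05 alone, 5 of the 10 lay lower (*Mpo*, *Elane*, *Prtn3*, *Ms4a3* and *Cebpe*), against 2.39% of all genes, and 1 lay higher (*Lyz2*), against 3.92%. The same 6 genes had CPM values that did not overlap between the genotypes, 5 lower (5.18% of all genes) and 1 higher (5.42%). None had an adjusted p under 0.05, which 5 genes (0.0408%) of all those tested had. Of the 10, 8 had a log2 fold change below 0, as 54.5% of all genes did. The median of the 10 was -0.47, against -0.021 over all genes. Because the genes were chosen with earlier results of these data known, these comparisons with all genes are descriptions only. An exact two-sided permutation test of 3 libraries against 3 cannot give a p below 0.1, and it gave 0.1 for each of these 6 genes.

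**Figure D2:**
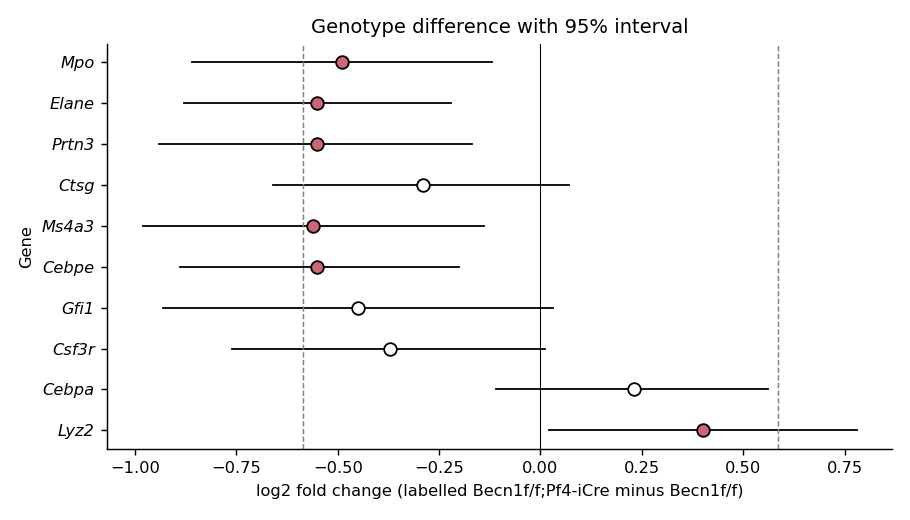
Log2 fold change (Cre-labelled minus Becn1f/f) of each gene with its 95% interval from the edgeR fit; filled points have an unadjusted P under 0.05 and dashed lines mark a fold change of 1.5. No point lies beyond a dashed line, and the intervals of *Ctsg*, *Gfi1*, *Csf3r* and *Cebpa* include 0.

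Among the primary granule genes, *Mpo* encodes the enzyme that makes hypochlorous acid from hydrogen peroxide. *Mpo* was at 1671, 1442 and 1853 FPKM in Becn1f/f libraries 1, 2 and 3, and at 1086, 1003 and 1411 in Cre-labelled libraries 1, 2 and 3. Every Cre-labelled library lay below every Becn1f/f library, with the third just under the lowest of them. In CPM the means were 3670 ± 434 and 2614 ± 469 (SD, n = 3 each), or 71.2% of the Becn1f/f mean. The log2 fold change was -0.49 (SE 0.17, edgeR adjusted p = 0.57), with a 95% interval from -0.86 to -0.12.

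*Elane* encodes neutrophil elastase, a protease that degrades matrix and bacterial proteins. It was at 1056, 1119 and 1168 FPKM in Becn1f/f libraries and at 704, 650.6 and 909 in Cre-labelled libraries 1, 2 and 3. The Becn1f/f values lay close together and all above the Cre-labelled ones. *Elane* had the smallest P of the 10 genes, with a log2 fold change of -0.55 (SE 0.15, unadjusted P = 0.0033, adjusted p = 0.39, edgeR). Its adjusted p was 0.06 with DESeq2 and between 0.06 and 1.00 over all alternatives.

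*Prtn3* encodes proteinase 3, a close relative of elastase and the neighbouring gene on chromosome 10. It was at 715, 977 and 795 FPKM in Becn1f/f libraries and at 540, 455 and 685 in Cre-labelled libraries. The groups did not overlap, although the third Cre-labelled library came near the first Becn1f/f library. Its log2 fold change was -0.55 (SE 0.18, edgeR adjusted p = 0.48). Transcripts of *Elane* and *Prtn3* shared 0% of their 50-base stretches, so their reads could be told apart at that length.

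*Ctsg* encodes cathepsin G, the chymotrypsin-like protease of the same granules. It was at 403, 411 and 388 FPKM in Becn1f/f libraries and at 289, 268 and 417 in Cre-labelled libraries. The groups overlapped, because the third Cre-labelled library was the highest of the 6 in FPKM. The log2 fold change was -0.29 (SE 0.17, edgeR adjusted p = 0.88), with a 95% interval from -0.66 to 0.07. That value was -0.16 without Cre-labelled library 2 and -0.50 without Cre-labelled library 3, where the unadjusted P was 0.012.

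*Ms4a3*, a membrane protein of granulocyte-monocyte progenitors, was at 148, 156 and 172 FPKM in Becn1f/f libraries. In Cre-labelled libraries it was at 86.6, 85.7 and 149. Cre-labelled libraries 1 and 2 lay well below the other 4, and the third fell inside the Becn1f/f range in FPKM but under it in CPM. The log2 fold change was -0.56 (SE 0.19, edgeR adjusted p = 0.56), with a 95% interval from -0.98 to -0.14. Of the 10 genes it most often met the DEG thresholds under other settings, in 7 of 17 fits.

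The transcription factors did not move alike. *Cebpe*, needed for the passage from promyelocyte to later stages, was at 66.8, 62.8 and 61.7 FPKM in Becn1f/f libraries and at 40.1, 36.4 and 53.6 in Cre-labelled libraries. The groups did not overlap, and the log2 fold change was -0.55 (SE 0.16, unadjusted P = 0.0050, adjusted p = 0.44, edgeR). *Cebpa*, which acts earlier, was at 48.4, 62.8 and 76.9 FPKM in Becn1f/f libraries and at 69.7, 69.6 and 77.3 in Cre-labelled libraries. The Cre-labelled values fell within or just above the wide Becn1f/f range, with a log2 fold change of 0.23 (SE 0.16, edgeR adjusted p = 0.90) and a 95% interval from -0.11 to 0.56. Without Becn1f/f library 1 that of *Cebpa* was 0.10, and without Becn1f/f library 3 it was 0.38 (unadjusted P = 0.032, edgeR). Per library, the ratio of *Cebpe* to *Cebpa* in FPKM was 1.38, 1.00 and 0.803 in Becn1f/f libraries and 0.576, 0.522 and 0.693 in Cre-labelled libraries. These ratios did not overlap, and they do not depend on how the libraries were scaled.

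*Gfi1*, a repressor that favours granulocytes over monocytes, was the lowest of the set, at 9.60, 8.36 and 13.9 FPKM in Becn1f/f libraries and 6.04, 6.75 and 10.3 in Cre-labelled libraries. The third library was the highest in each genotype, and the groups overlapped. The log2 fold change of *Gfi1* was -0.45 (SE 0.22, edgeR adjusted p = 0.82), or -0.24 without Becn1f/f library 3 and -0.69 without Cre-labelled library 3. *Csf3r* was at 78.6, 92.0 and 129 FPKM in Becn1f/f libraries and at 65.5, 88.0 and 75.4 in Cre-labelled libraries. The groups overlapped, with Becn1f/f library 3 above all others, and the log2 fold change was -0.37 (SE 0.18, edgeR adjusted p = 0.81). Without that library it was -0.15.

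*Lyz2* lay on the other side. It was at 5909, 7233 and 5320 FPKM in Becn1f/f libraries and at 8914, 7755 and 7456 in Cre-labelled libraries, where every value was above the Becn1f/f ones. The log2 fold change was 0.40 (SE 0.17, unadjusted P = 0.040, adjusted p = 0.76, edgeR), with a 95% interval from 0.02 to 0.78. Its neighbour and paralog *Lyz1*, named after its values were seen, was at 208 ± 19.8 and 286 ± 12.4 FPKM (SD, n = 3 each), and differed by 0.47 on the log2 scale. The counts of this pair are uncertain, since 15.4% of the 50-base stretches of *Lyz2* transcripts also occur in *Lyz1*. The ratio of *Lyz2* to *Mpo* in FPKM was 3.54, 5.01 and 2.87 in Becn1f/f libraries and 8.21, 7.73 and 5.28 in Cre-labelled libraries, without overlap. That follows from the opposite separation of *Lyz2* and *Mpo* themselves and is no further result.

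The Cre-labelled libraries differed in a common way across 6 early genes. These 6 are the 5 genes with lower values at an unadjusted P under 0.05 in edgeR's test, and *Ctsg*. Set against the Becn1f/f mean in CPM, *Mpo*, *Elane*, *Prtn3*, *Ctsg*, *Ms4a3* and *Cebpe* lay at 57.6% to 76.1% in Cre-labelled library 1 and at 53.1% to 65.6% in library 2. In library 3 they lay at 80.7% to 103%, and in the Becn1f/f libraries at 86.6% to 118%. Without Cre-labelled library 3, 6 of the 10 genes met the DEG thresholds with lower values (*Mpo*, *Elane*, *Prtn3*, *Ms4a3*, *Cebpe* and *Gfi1*), against 1.14% of all genes in that fit. The log2 fold change of *Ms4a3* was then -0.85 (adjusted p = 0.19 from the edgeR test, and between 0.19 and 1.00 over all its fits that left out a library). At an unadjusted P under 0.05 alone, the genes with lower values numbered 7 without Cre-labelled library 3 (1.83% of all genes), but 3 without Cre-labelled library 1 (*Elane*, *Prtn3* and *Cebpe*; 2.92% of all genes) and 3 without library 2 (*Elane*, *Cebpe* and *Csf3r*, against 1.13%). *Elane* and *Cebpe* were below that P in 17 of 17 alternative fits, *Prtn3* in 16, *Ms4a3* in 15 and *Mpo* in 13. *Lyz2* was below it in 9 of 17. It was not without Becn1f/f library 1 or 3, without Cre-labelled library 1 or 2, with the replicate number as a block, or in the 3 limma fits on log2 FPKM. For the DEG thresholds, leaving out Becn1f/f library 3 gave 2 (*Prtn3* and *Cebpe*; 0.97% of all genes), leaving out Becn1f/f library 1 gave 1 (*Prtn3*, against 1.06%) and leaving out Becn1f/f library 2 gave 1 (*Gfi1*, against 1.68%).

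**Figure D3:**
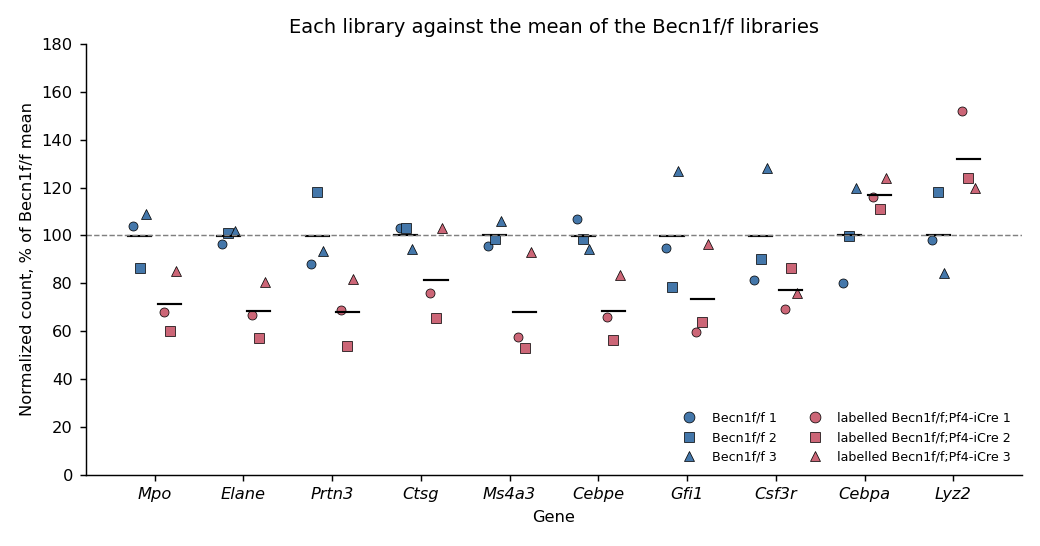
CPM of each gene in each library as a percentage of the Becn1f/f mean (dashed line at 100), with Becn1f/f in blue, Cre-labelled libraries in red and a bar at the group mean. For the 6 early genes on the left, Cre-labelled libraries 1 and 2 lie at 53.1% to 76.1% and library 3 at 80.7% to 103%, while all Cre-labelled values of *Lyz2* lie at 120% or above.

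As a description over 6 libraries, the log2 CPM of these 6 early genes correlated with each other at Pearson r of 0.76 to 0.97 (median 0.93 over 15 pairs). With the genotype means taken out, r was 0.32 to 0.97 (median 0.82). Cre-labelled library 3 lay above Cre-labelled libraries 1 and 2 for all 6 genes. The Becn1f/f libraries showed no such common order. In Becn1f/f libraries 1, 2 and 3, *Mpo* was at 104%, 86.6% and 109% of their mean, but *Prtn3* at 88.0%, 118% and 93.6%. *Gfi1* correlated with the 6 at 0.55 to 0.90, *Csf3r* at 0.18 to 0.55 and *Cebpa* at -0.51 to -0.22. Within genotypes these ranges were 0.15 to 0.87 for *Gfi1*, -0.45 to 0.09 for *Csf3r* and -0.05 to 0.43 for *Cebpa*, so the last pair mostly turned in sign. *Lyz2* ran against them at -0.83 to -0.45, but within genotypes its r ranged from -0.57 to 0.36. All 6 early genes had log2 fold changes below 0, and *Lyz2* above 0. The r over the 6 libraries therefore partly restates these genotype differences, and so does the negative r of *Lyz2*. All these values come from the same libraries, and depth and cell content are shared between the genes. The 5 other genes closest to the mean pattern of *Mpo*, *Elane*, *Prtn3* and *Ctsg*, among 8768 genes with at least 10 CPM, were *Mrpl3*, *Psme3*, *Metap2*, *Eif2b3* and *Calr*, with r of 0.989, 0.979, 0.978, 0.975 and 0.973 over the 6 libraries. Their own differences were smaller, with log2 fold changes of -0.32 (*Calr*) to -0.16 (*Eif2b3*). These 5 were picked as the highest of 8768 values, each over 6 libraries, where r of this size can arise by chance. No test was made of them.

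Other genes of early granulocytes moved less as a group. Of 18 such genes, 13 had lower and 5 higher values in Cre-labelled libraries, with a median log2 fold change of -0.11. Over all genes, 54.5% lay below 0 and 0.938% were DEGs with lower values. The 1 DEG among the 18 was *Prss57*, a serine protease of neutrophil granules. It was at 21.4, 18.2 and 21.8 FPKM in Becn1f/f libraries and at 12.2, 10.9 and 17.1 in Cre-labelled libraries. Its groups did not overlap, and its log2 fold change was -0.60 (SE 0.18, edgeR adjusted p = 0.45). It met the DEG thresholds in 12 of 17 alternative fits, and not without Becn1f/f library 1 or 3, without Cre-labelled library 1 or 2, or with GC and length trends removed. The 4 genes of the list with the highest FPKM, *Srgn* (serglycin, which packs granule proteases), *Plac8*, *Hp* (haptoglobin) and *Cyba* (an oxidase subunit), had log2 fold changes between -0.14 and 0.01.

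Genes of secondary granules and late neutrophils, a later stage, were lower in 17 of 19 cases (54.5% of all genes), with a median log2 fold change of -0.42. At an unadjusted P under 0.05 alone in edgeR's test, 5 of the 19 lay lower, against 2.39% of all genes. Only *Mmp9* (gelatinase B) met the DEG thresholds, at -0.59 (SE 0.22, edgeR adjusted p = 0.61). Its groups overlapped in CPM but, narrowly, not in FPKM. It met them in 9 of 17 alternative fits, and not without Becn1f/f library 3, without Cre-labelled library 1, with the replicate block, with limma-voom, in the 3 fits on log2 FPKM or with GC and length trends removed. *Mmp9* was at 133, 117 and 221 FPKM in Becn1f/f libraries and at 80.6, 116 and 111 in Cre-labelled libraries. The most abundant of this list, *S100a8*, *S100a9*, *Ngp* and *Retnlg*, had log2 fold changes of -0.27, -0.40, -0.44 and -0.38 and overlapping groups. The list took 1.05% to 1.47% of counts in Becn1f/f and 0.865% to 1.14% in Cre-labelled libraries. Without Cre-labelled library 3, 7 genes of this and the preceding list together met the thresholds with lower values (1.14% of all genes), and without Becn1f/f library 2, 9 did (1.68%).

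Among regulators and receptors beyond the 10 genes, both DEGs had higher values in Cre-labelled libraries, a call made for 1.36% of all genes. Of 26 other progenitor regulators, 14 were higher and 12 lower, with a median log2 fold change of 0.00. *Klf4*, a factor of monocyte differentiation, was the 1 DEG among them, at 192, 158 and 158 FPKM in Becn1f/f and 252, 286 and 264 in Cre-labelled libraries, without overlap. Its log2 fold change was 0.67 (SE 0.15, edgeR adjusted p = 0.17). *Spi1* (PU.1), *Cebpb* and *Egr1* had -0.13, -0.19 and -0.24. Of 13 other cytokine receptor and signalling genes, 9 were higher and 4 lower, with a median of 0.18. The DEG here was *Flt3*, a receptor of early progenitors and dendritic cell precursors, at 21.7, 18.5 and 24.3 FPKM in Becn1f/f and 34.5, 40.0 and 32.5 in Cre-labelled libraries. It had a log2 fold change of 0.74 (SE 0.14, edgeR adjusted p = 0.11). *Klf4* and *Flt3* met the DEG thresholds in 17 of 17 alternative fits. *Csf1r*, *Csf2ra*, *Csf2rb* and *Jak1* had log2 fold changes of 0.26, 0.04, -0.05 and -0.02.

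**Figure D4:**
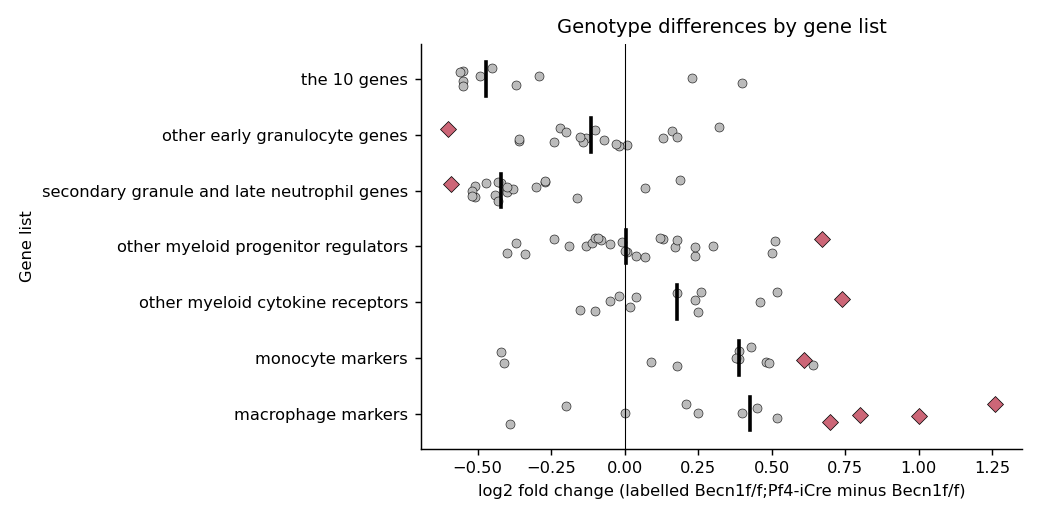
Log2 fold change (Cre-labelled minus Becn1f/f) of every tested gene in 7 lists; grey points did not meet the DEG thresholds, red diamonds did, and a black bar marks the median. The medians are -0.47 for the 10 genes, -0.42 for late neutrophil genes, 0.39 for monocyte markers and 0.42 for macrophage markers.

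Monocytes and macrophages also express *Lyz2*, and 1 of 12 monocyte and 4 of 12 tested macrophage markers were DEGs. All had higher values in Cre-labelled libraries, a call made for 1.36% of all genes. Of the 12 monocyte markers, 10 were higher and 2 lower (median 0.39), and the list took 0.473% to 0.547% of counts in Becn1f/f and 0.629% to 0.687% in Cre-labelled libraries, without overlap. *Cx3cr1* was the 1 DEG among them, with a log2 fold change of 0.61, but it did not qualify without Becn1f/f library 1 or 2 or without Cre-labelled library 2. Of the 12 tested macrophage markers, of 14 listed, 10 had a log2 fold change above 0 by the fit (median 0.42). The DEGs were *Mrc1*, *Siglec1*, *C1qc* and *Cd163*, which were low, at 0.853 to 4.81 FPKM on average in either genotype. *Mrc1* met the thresholds in 17 of 17 alternative fits. *Cd163* met them in 15, and not with log2(FPKM + 1) with or without the filter at a mean of 1. *C1qc* met them in 13, and not without Becn1f/f library 1 or Cre-labelled library 3, nor with log2(FPKM + 1) without that filter or log2(FPKM + 0.1). *Siglec1* met them in 13, and not without Cre-labelled library 1 or in the 3 fits on log2 FPKM. Among macrophage markers that were not DEGs, 3 were singled out after their values were seen. *Adgre1* (F4/80), at a mean of 64.6 FPKM, had a log2 fold change of 0.00 (SE 0.19), and *Slc40a1* and *Vcam1* had -0.39 and -0.20. The macrophage list took 0.0247% to 0.0411% of counts in Becn1f/f and 0.0324% to 0.0339% in Cre-labelled libraries, with overlap. The part of monocyte and macrophage RNA in the *Lyz2* values was not tested.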

How the data were processed

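MK RNA was compared between 3 Becn1f/f libraries and 3 libraries labelled Becn1f/f;Pf4-iCre, grouped by sample titles. After removal of poor reads, the authors mapped with HISAT and deposited estimated counts, which are not normalized and not whole for 10.3% to 11.3% of genes per library, and FPKM, which the authors scaled for length and depth. Per the labels, the processing notes name HISAT, Bowtie2 and GRCm39 (mm39); the counting tool is not given in the sources used here. Not used were 16 other per-sample columns, 4 of them of 1 library that matches no sample here, and 8 columns of group means.

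Counts were rounded, passed through edgeR's expression filter, TMM-normalized and compared by edgeR's quasi-likelihood test (version 4.0.16, R 4.3.3), with genotype as sole factor and Benjamini-Hochberg adjustment over 12256 genes. The SE is the size of the log2 fold change over the root of F. Totals of 16467560 to 17156728 counts leave the 3 libraries per genotype as the limit on precision. The genes and lists were chosen with earlier results of these data known. Named genes are the 10, list members meeting the DEG thresholds, the 4 highest by FPKM in each granulocyte, regulator and receptor list, and the 5 closest in pattern. Same-numbered libraries deviated together at r of 0.07, -0.28 and 0.20, so numbers were not treated as pairs. Alternatives were DESeq2 1.42.0, other scaling and filters, a replicate block, limma 3.58.1 on counts (voom), log2(FPKM + 1) or log2(FPKM + 0.1), an adjusted p threshold, leaving out each library and, added after seeing the data, removal of GC content and length trends. The edgeR step was tested on simulated data. Promoter letters were searched on both strands of RefSeq windows of GRCm38.p6, another build than the labels name.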

Additional observations from a re-analysis of the deposited data

How the results depend on the processing

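What caused these changes was not tested. The number of the 10 genes meeting the DEG thresholds with lower values was 0 in the edgeR test and 0 with DESeq2, its size factors, upper-quartile scaling, either filter on low counts and an adjusted p threshold. It was 1 (*Ms4a3*) with the replicate block, limma-voom, log2(FPKM + 1) with or without a filter at a mean of 1, log2(FPKM + 0.1), and the GC and length correction, and 0 to 6 when each library was left out. The number with higher values was 0 under every alternative run. The block rests on shared numbers only, and 2 of 6 libraries correlated best with their own number. With it *Lyz2* had an unadjusted P of 0.062 in edgeR's test. Across the other lists of granulocyte genes, regulators and receptors, 2 DEGs were lower and 2 higher. The lower count was 1 (*Prss57*) with the replicate block, limma-voom and the 3 FPKM fits, 0 with the GC and length correction or an adjusted p threshold, and 0 to 9 when each library was left out. *Mmp9* met the thresholds in 9 of 17 alternative fits. The higher count was 2 to 3 when each library was left out and 0 with an adjusted p threshold. No log2 fold change of the 10 genes changed sign in any fit. With GC trends removed, the correlation of log2 fold changes with GC content across genes went from -0.34 to 0. *Ms4a3* then had -0.59, but *Elane* -0.45, *Prtn3* and *Cebpe* -0.42, *Mpo* -0.41, *Gfi1* -0.37, *Csf3r* -0.31 and *Ctsg* -0.25, nearer to 0 than before, and *Cebpa* had 0.33 (unadjusted P = 0.038). Over all genes, DEGs with lower values numbered 115 in the edgeR test, 33 with log2(FPKM + 1) (41 with the filter), 216 with log2(FPKM + 0.1) and 208 without Becn1f/f library 2. Those with higher values numbered 167, 88 (96 with the filter) and 216, and 267 without Becn1f/f library 1. Adjusted p over the 10 genes lay between 0.06 (*Elane*, with DESeq2) and 1.00.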

Other observations

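Markers of further blood cells stood beside the granulocyte genes as follows. All 14 erythroid markers had lower values in Cre-labelled libraries (median log2 fold change -0.64), and 7 met the DEG thresholds. Over all genes, 54.5% had a log2 fold change below 0 and 0.938% were DEGs with lower values. Of 13 tested mast cell, basophil and eosinophil markers, 11 were lower (median -0.34) and 0 met the thresholds in edgeR's test, 2 of them having an unadjusted P under 0.05. B-cell markers were lower in 10 of 12 cases (median -0.22), with *Igll1*, a surrogate light chain of precursors, as the 1 DEG. The 16 tested MK and platelet markers had a median of -0.02, with 9 lower and 7 higher. *Pf4* was the 1 DEG among them, with a log2 fold change of -1.01 (SE 0.29, edgeR adjusted p = 0.42). The 9 tested T and NK cell markers had a median of -0.05. The part of these cells in the values of the granulocyte genes was not tested.

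Ratios between primary granule genes were also formed within each library. The FPKM ratio of *Mpo* to *Elane* was 1.49 ± 0.171 in Becn1f/f and 1.55 ± 0.00622 in Cre-labelled libraries (SD, n = 3 each), and that of *Elane* to *Prtn3* was 1.36 ± 0.189 and 1.35 ± 0.0683. The ratio of *Elane* to *Ctsg* was 2.62, 2.72 and 3.01 in Becn1f/f libraries and 2.43, 2.43 and 2.18 in Cre-labelled libraries, without overlap, whereas that of *Prtn3* to *Ctsg* overlapped, at 1.78, 2.37 and 2.05 against 1.87, 1.70 and 1.64. These ratios are descriptions and were not tested.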
